A study of Macaca mulatta with 12 samples.

Results

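Histone modifiers and chromatin remodellers were followed here as a module of 83 genes, out of 12993 genes named on a rhesus macaque expression array. A gene was a member when its symbol in the platform annotation belonged to the lysine demethylases (KDM), the KMT2 and SETD methyltransferases, the deacetylases (HDAC), the sirtuins (SIRT), the SMARC and CHD remodellers, the chromodomain proteins of the CBX family or the PHD finger proteins (PHF), or when it encoded EZH1, EZH2, EED, SUZ12 or JARID2. These symbols covered 194 of 52766 probe sets, counting only probe sets with exactly 1 symbol. Each gene was represented by its brightest probe set, judged by the mean of all 12 arrays. Of these arrays 9 are from embryonic stem cells, so the choice can favour probe sets that are bright in those cells.

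DNA in the nucleus is wrapped around histones, and the enzymes of this module write, erase or read chemical marks on histone tails or move the histones along DNA. Trithorax-type methyltransferases of the KMT2 and SETD1 families mark active promoters, Polycomb repressive complex 2 marks silenced developmental genes, deacetylases remove the acetyl groups that accompany transcription, and SWI/SNF and CHD remodellers use ATP to open or shift nucleosomes. Pluripotent cells are known for an open chromatin state with high levels of several of these proteins, and subunits of the remodelling complexes are exchanged for paralogues as cells differentiate.

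Total RNA of 4 cell populations was hybridised to Affymetrix arrays, 3 arrays for each. ORMES-22 is a female embryonic stem (ES) cell line from a blastocyst made by in vitro fertilisation, and so has genomes from both parents. The other female ES cell lines, rPESC-2 and ORMES-9, are parthenogenetic: they arose from unfertilised eggs, and the labels describe them as heterozygous and homozygous, respectively. Skin fibroblasts from a biopsy of an adult male aged 9 years were the somatic control. The ES cells grew on mitotically inactivated mouse embryonic fibroblasts in medium with more serum than that of the fibroblasts, which had no feeder layer, and ES RNA came from colonies picked as undifferentiated. Replicates A, B and C of ORMES-22 were at passages 18, 21 and 19, those of rPESC-2 at passages 16, 10 and 16, and those of ORMES-9 at passages 13, 14 and 16. The source field of ORMES-9 names a fertilised blastocyst, whereas its description and the design text speak of a homozygous parthenote, and it was analysed as parthenogenetic. Each kind of ES cell is 1 line, so the p-values reflect how far arrays of 1 line differ from each other, and the line and its parental origin cannot be told apart.

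Values are log2 expression levels after the RMA procedure, in which a difference of 1 is a 2-fold change, and the number of arrays limits their precision. Levels of different probe sets are not comparable, so only the same probe set is compared between groups. A gene was called when limma's adjusted p (Benjamini-Hochberg over all probe sets) was under 0.05 and the difference was at least 2-fold. Pluripotency markers had a mean level of 8.61 to 9.3 on the ES arrays and 4.99 to 5.04 on the fibroblast arrays, with 10 of 14 measured markers lower in fibroblasts, but the probe set named NANOG was 1.32 log2 units higher there. Fibroblast and matrix markers had a mean level of 11.15 to 11.17 on the fibroblast arrays and 7.04 to 8.28 on the ES arrays, with 13 of 16 higher in fibroblasts. ORMES-22 replicate A stood apart: it correlated with replicates B and C across probe sets at 0.9855 and 0.9844 and with rPESC-2 replicate A at 0.9896. Results that rest on this array are therefore given with and without it.

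The largest differences of the module lay between fibroblasts and ES cells. Against the mean of the 3 ES lines, 28 of 83 members (33.7%) were called lower in fibroblasts, where 15% of all named genes were. The 7 members called higher were 8.43% of the module, below the 13.2% of all named genes. Without a minimum fold, 51 members (61.4%) were lower and 12 (14.5%) higher, against 45.4% and 25.8% of all genes. The median difference of the members was −0.55 (quartiles −1.19 and −0.06), and that of all genes was −0.15. Among the 11788 genes above the array background in at least 1 group, 16.6% were called lower and 14.6% higher, with a median of −0.18. The members were also brighter, with a median level of 8.26 over all arrays against 6.92 for all named genes. The part of brightness in the members' shares was not tested. In bulk RNA, fewer cells of a type and less RNA per cell cannot be told apart.

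**Figure D1:**
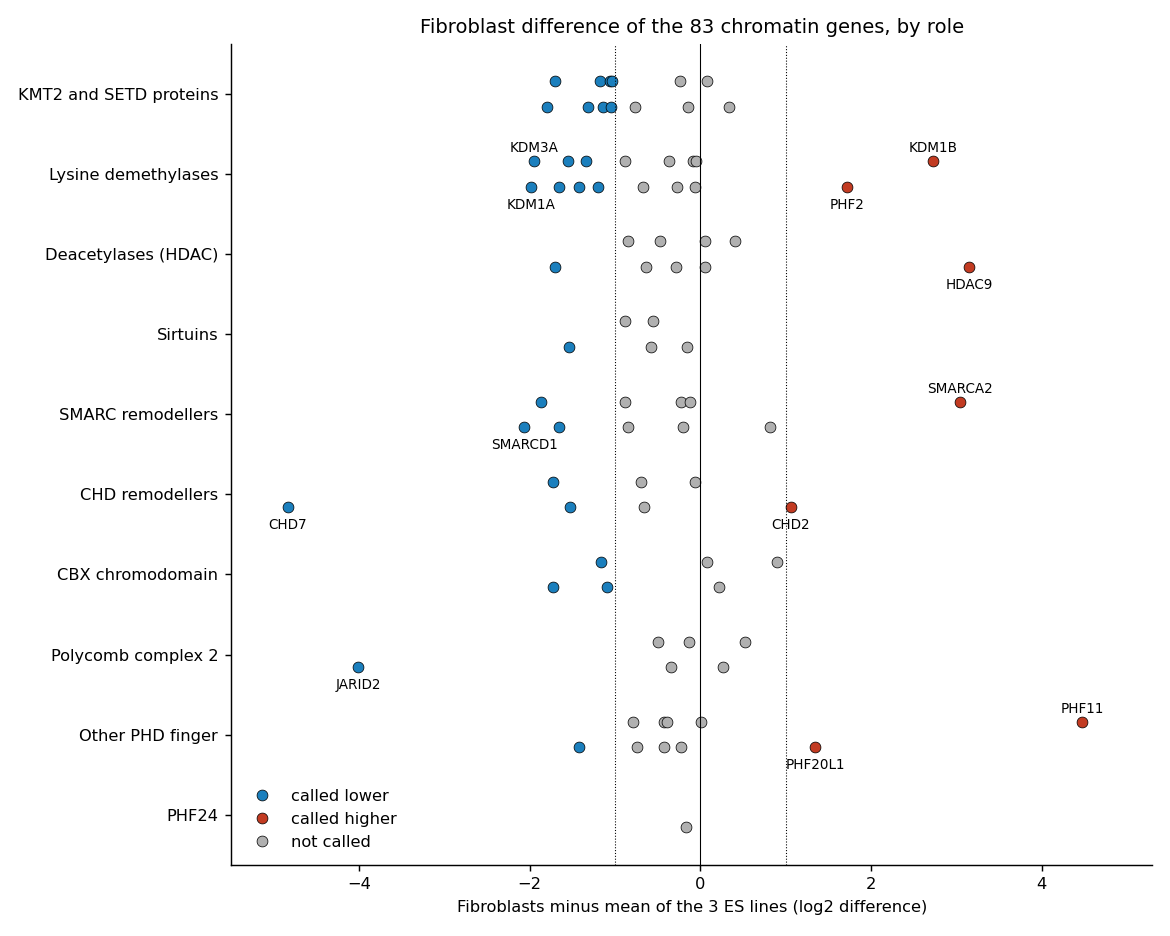
Log2 difference between fibroblasts and the mean of the 3 ES lines for each of the 83 genes, by role; each point is 1 gene, blue was called lower, red called higher and grey not called, and dotted lines mark a 2-fold change. Each of the 9 role groups holds at least 1 of the 28 lower genes, and the 7 higher genes reach 4.48 (PHF11), while CHD7 (−4.83) and JARID2 (−4.01) lie far to the left.

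Proliferation differed between the same groups. Of 15 measured cell cycle and replication genes, 10 were called lower in fibroblasts and 0 higher, with a median of −1.11 and mean levels of 9.5 to 9.7 on the fibroblast arrays and 10.65 to 10.94 on the ES arrays. The part of proliferation in the members' differences was not tested. Sex, feeder cells and medium differed between fibroblasts and all ES lines, and their effects and that of cell type cannot be told apart.

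Most of the KMT2 and SETD methyltransferase genes were lower in fibroblasts. Of 13 measured, 8 were called lower and 0 higher, against 15% and 13.2% of all named genes. The median of the 13 genes was −1.05. The largest difference was that of SETD5, a SET domain protein, with fibroblast values of 9.18, 8.92 and 8.96. On the 9 ES arrays it ranged from 10.28 over a median of 10.89 to 11.14. No fibroblast array reached the lowest ES array, and the difference was −1.8 (SE 0.11, adjusted p = 3.9e-08, 3.48-fold lower).

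SETDB1 methylates lysine 9 of histone H3 and silences retroelements in ES cells. Its values were 7.54, 7.24 and 7.31 in fibroblasts and 8.83 to 9.3 (median 9.06) on the ES arrays, a 3.24-fold lower level without overlap (−1.7, SE 0.08, adjusted p = 3.2e-09). The H3K4 methyltransferase genes KMT2D, KMT2A, KMT2B and SETD1A were 2.27-fold, 2.21-fold, 2.08-fold and 2.07-fold lower. SETD3, whose protein methylates actin, was 2.04-fold lower, close to the 2-fold minimum. For KMT2A the brightest of 11 probe sets was used, and 2 of the other 10 were also called lower while the rest were not called. SETD6, which methylates the NF-kappaB subunit RelA, was 2.48-fold lower than the ES mean, but against ORMES-22 alone the difference was −0.4 and was not called.

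Of 16 measured demethylase genes, which encode erasers of histone methylation, 7 were called lower and 2 higher. Of all named genes 15% were lower and 13.2% higher, so the share called higher is near the background. The median of the demethylase genes was −0.77. KDM1A encodes LSD1, the H3K4 demethylase of the CoREST complex. Its fibroblast values were 9.21, 9.09 and 9.15, and its ES values were 10.61 to 11.44 with a median of 11.15. The groups did not overlap, and KDM1A was 3.95-fold lower in fibroblasts (−1.98, SE 0.12, adjusted p = 2.3e-08).

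KDM1B, the paralogue that acts on H3K4 in the growing oocyte, went the other way. Its values were 9, 9 and 8.73 in fibroblasts and 5.66 to 6.52 (median 6.28) on the ES arrays. All fibroblast arrays were higher than all ES arrays, by 6.64-fold on average (2.73, SE 0.13, adjusted p = 2.9e-09). Of the other 3 probe sets of KDM1B, 1 gave 2.27 and was called, while the others gave 0.14 and −0.4 and were not.

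A second such pair were the related demethylase genes PHF8 and PHF2. PHF8 stood at 6.28, 6.19 and 6.23 in fibroblasts and at 7.63 to 7.96 in ES cells (2.92-fold lower). PHF2 stood at 8.07, 8.09 and 7.96 in fibroblasts and at 5.92 to 6.57 in ES cells (3.3-fold higher), but its other probe set gave −0.14 and was not called. These opposite pairs were picked out after their values were seen, and the difference between their members was not tested.

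KDM3A, an H3K9 demethylase, had the widest spread among the lower demethylases. ORMES-22 replicate A stood at 10.32 while replicates B and C stood at 8.57 and 8.01, and the other ES arrays lay between 8.94 and 9.9. Fibroblasts were lower than all of these, at 7.57, 7.28 and 7.37 (−1.95, SE 0.36, adjusted p = 0.00052), and without ORMES-22 replicate A the difference was −1.72. KDM2B, which binds CpG islands and brings Polycomb repressive complex 1 to them, was 3.15-fold lower. KDM5C, KDM4B and KDM3B were 2.68-fold, 2.53-fold and 2.3-fold lower.

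**Figure D2:**
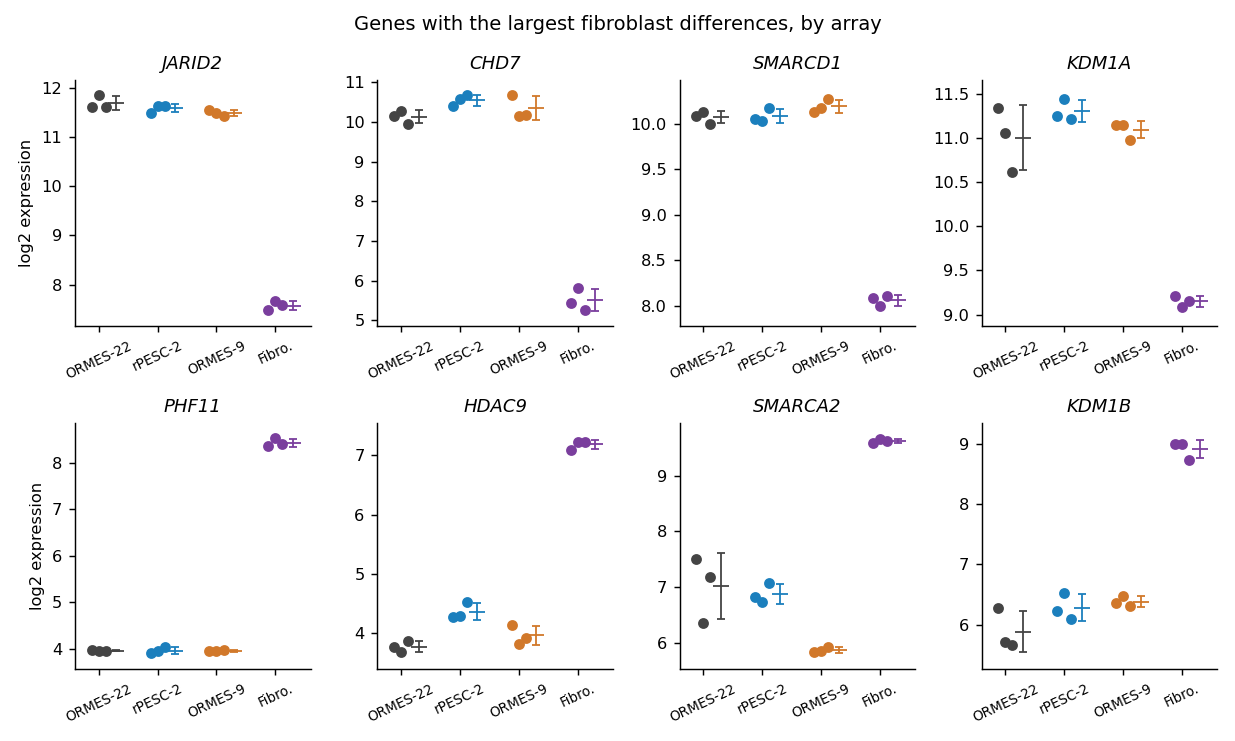
Log2 expression on each array for the 4 genes with the largest decrease in fibroblasts (top) and the 4 with the largest increase (bottom); points are arrays A, B and C of a line, the horizontal tick beside them is the mean and the bar the SD (n = 3), and the vertical axes differ between panels and do not start at 0. In every panel the 3 fibroblast arrays lie outside the range of the 9 ES arrays, for example 7.48 to 7.66 against 11.43 to 11.84 for JARID2.

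Deacetylases held 1 call in each direction. Of 9 measured HDAC genes, 1 was called lower and 1 higher, with a median of −0.28. Of 5 sirtuin genes, 1 was called lower and 0 higher, with a median of −0.58. Among all named genes, 15% were called lower and 13.2% higher, and the HDAC counts do not exceed these shares. Without a minimum fold, 5 of the 9 HDAC genes were lower and 2 higher, against 45.4% and 25.8% of all genes. Of the 5 sirtuin genes, 4 were lower and 0 higher. HDAC2, a class I deacetylase of the NuRD, SIN3 and CoREST complexes, stood at 9.79, 9.77 and 9.81 in fibroblasts and at 11.27 to 11.71 (median 11.48) in ES cells. The groups were well apart, at 3.24-fold lower in fibroblasts (−1.7, SE 0.09, adjusted p = 6.3e-09), and the other HDAC2 probe set gave −1.55. HDAC1, its close paralogue, gave 0.06 (SE 0.08, adjusted p = 0.54) with overlapping values, while its other probe set gave 0.8 (adjusted p = 2.5e-06), under 2-fold.

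HDAC9 encodes a class IIa deacetylase that partners with MEF2 factors in muscle. It stood at 7.09, 7.23 and 7.23 in fibroblasts and at 3.68 to 4.53 (median 3.92) in ES cells, 8.87-fold higher in fibroblasts (3.15, SE 0.08, adjusted p = 1.1e-11). Its means in ORMES-22 and ORMES-9 lay under a background level of 4.26, below which 90% of the values of 42 bacterial control probe sets fell, so this fold depends on the array background. The other HDAC9 probe sets lay under that level in every group. SIRT1, a nuclear NAD-dependent deacetylase, was 2.91-fold lower in fibroblasts, at 7.99, 7.75 and 7.81 against 8.7 to 9.88 in ES cells.

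Remodellers of the SMARC group, most of them SWI/SNF subunits, contained both a strong increase and strong decreases. Of 10 measured genes, 3 were called lower and 1 higher, against 15% and 13.2% of all named genes. The median of the 10 genes was −0.53. SMARCA2 encodes BRM, an ATPase of SWI/SNF. Its values were 9.6, 9.66 and 9.63 in fibroblasts and 5.83 to 7.51 (median 6.74) in ES cells. Every fibroblast array was above every ES array, by 8.23-fold on average (3.04, SE 0.18, adjusted p = 1.8e-08), and all 4 of the other SMARCA2 probe sets were also called higher, by 2.52 to 3.32.

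SMARCD1, which encodes the BAF60a subunit, was the SMARC gene with the largest decrease. It stood at 8.08, 7.99 and 8.1 in fibroblasts and within a narrow band of 10 to 10.27 in ES cells (−2.06, SE 0.06, adjusted p = 2.5e-11, 4.16-fold lower). SMARCC1, encoding the BAF155 scaffold, was 3.64-fold lower, and 3 of its 4 other probe sets were called lower as well. SMARCAD1, a remodeller that keeps heterochromatin through replication, was 3.15-fold lower. The core subunit gene SMARCB1 gave −0.12 with overlapping values, and its difference did not pass the test (adjusted p = 0.24), while its other probe set gave 0.42 (adjusted p = 0.011).

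The CHD remodellers held the largest decrease of the module. CHD7, a remodeller of enhancers that is mutated in CHARGE syndrome, stood at 5.44, 5.81 and 5.27 in fibroblasts. On the ES arrays it ranged from 9.95 over a median of 10.28 to 10.69. It was 28.4-fold lower in fibroblasts (−4.83, SE 0.14, adjusted p = 1.8e-11), and its other 2 probe sets gave −4.37 and −5.81.

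CHD5 and CHD6 were 3.33-fold and 2.89-fold lower. With CHD7, 3 of 7 measured CHD genes were called lower and 1 higher, against 15% and 13.2% of all named genes. The median of the CHD genes was −0.69. The probe sets of CHD6 disagreed: the 4 others gave −1.48 (called lower), 1.88 (called higher), −0.18 and −0.05, and a direction for CHD6 depends on the probe set. CHD2 was the CHD gene called higher, at 5.62, 5.42 and 5.6 in fibroblasts against 3.91 to 4.76 in ES cells (1.06, SE 0.11, adjusted p = 2.6e-06). Its ORMES-22 mean lay under the background level of 4.26, and against rPESC-2 alone or ORMES-9 alone the difference was 0.92 and was not called.

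Among the measured genes of Polycomb repressive complex 2, only JARID2 was called. Its protein is an accessory subunit that guides the complex to its targets in ES cells. JARID2 stood at 7.48, 7.66 and 7.58 in fibroblasts and at 11.43 to 11.84 (median 11.6) in ES cells. The groups lay far apart, with a 16.1-fold lower mean in fibroblasts (−4.01, SE 0.07, adjusted p = 2.7e-13), and the other JARID2 probe set gave −4.86. The core genes were closer: SUZ12 gave −0.49 (SE 0.08, adjusted p = 0.00018), EED gave −0.34 (SE 0.08, adjusted p = 0.0028) and the catalytic EZH1 gave −0.13 (SE 0.12, adjusted p = 0.37). None of these reached 2-fold, and the second SUZ12 probe set gave 1.58, in the opposite direction, and was called higher. EZH2 had no probe set with its symbol alone and is not analysed here. Of the 6 measured genes of this complex, 1 was called lower and 0 higher, against 15% and 13.2% of all named genes. Without a minimum fold, 3 were lower and 2 higher, against 45.4% and 25.8%. The median of the 6 genes was −0.24.

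Among the chromodomain readers, 3 of 6 were called lower and 0 higher, against 15% and 13.2% of all named genes. The median of the 6 genes was −0.5. CBX1, a heterochromatin protein that binds methylated H3K9, stood at 9.9, 9.71 and 9.7 in fibroblasts and at 11.21 to 11.69 in ES cells (3.31-fold lower, no overlap). CBX2 and CBX7, alternative subunits that tether Polycomb repressive complex 1 to H3K27 methylation, were 2.23-fold and 2.12-fold lower. CBX7 fell below the 2-fold minimum without ORMES-22 replicate A, at −0.96. Of the 10 other PHD finger genes measured, 2 were called higher and 1 lower, against 13.2% and 15% of all named genes. The share called lower does not exceed the background. The median of the 10 genes was −0.41.

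PHF11, a PHD finger protein described as a transcriptional coactivator in lymphocytes, had the largest increase of the module. It stood at 8.37, 8.53 and 8.4 in fibroblasts and between 3.9 and 4.03 on all ES arrays, and the fitted difference was 4.48 (SE 0.06, adjusted p = 1.4e-14, 22.3-fold). All 3 ES lines had means under the background level of 4.26, so the size of this fold depends on the background. PHF20L1, a reader of methylated lysines, was 2.55-fold higher in fibroblasts and had 3 of 4 other probe sets called higher. PHF12, a subunit of the SIN3 deacetylase complex, was 2.68-fold lower.

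Paralogue pairs within complexes are described by the difference between their members' log2 values on each array, with no test. SMARCC1 and SMARCC2 are the scaffold subunits of SWI/SNF. For SMARCC1 minus SMARCC2, the fibroblast arrays lay between 2.29 and 2.42 and the ES arrays between 3.45 and 4.98, a shift of −1.67. For SMARCD1 minus SMARCD3 the shift was −2.87, with SMARCD1 lower in fibroblasts and SMARCD3 at 0.82 (SE 0.1), under the 2-fold minimum. HDAC2 minus HDAC1 shifted by −1.76, and CBX5 minus CBX1, both heterochromatin proteins, by 1.95. CBX2 minus CBX7 shifted by −0.07, and PHF19 minus PHF1, accessory subunits of Polycomb repressive complex 2, by 0.26, both with overlapping values.

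**Figure D3:**
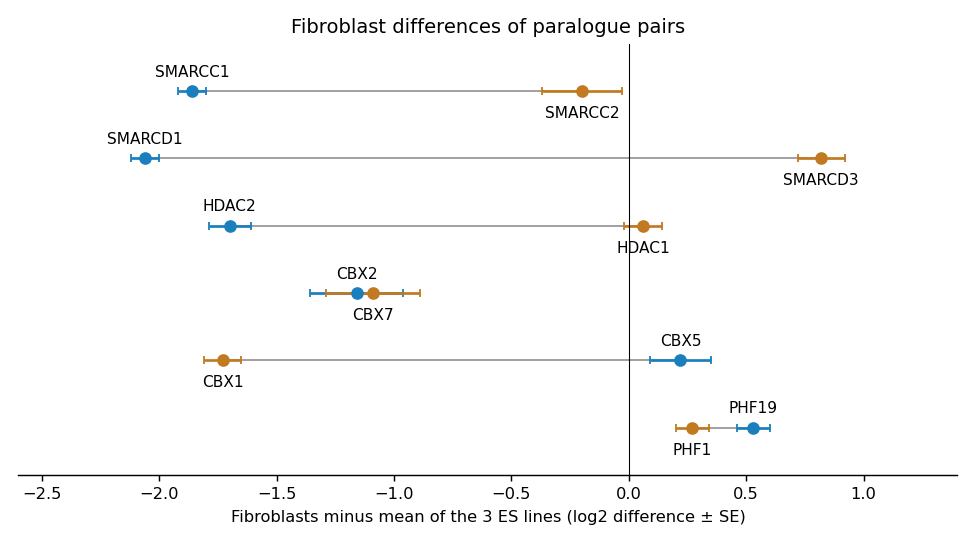
Log2 difference between fibroblasts and the mean of the 3 ES lines for both genes of each of 6 paralogue pairs; points are fitted differences, bars are their SE, and a grey line joins a pair. The genes of 4 pairs are far apart, such as SMARCD1 at −2.06 and SMARCD3 at 0.82, while CBX2 (−1.16) and CBX7 (−1.09) lie together.

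Most of these fibroblast calls held against each ES line alone. Of the 28 lower members, 22 were called against all 3 lines, the exceptions being CBX2, CBX7, KMT2A, SETD1A, SETD3 and SETD6, and of the 7 higher members 6 were, the exception being CHD2. Other probe sets were available for 23 of the 35 called members. Of these 60 probe sets, 25 were called in the same direction, 1 in the opposite direction (CHD6) and 34 were not called, and 15 of the 23 members had at least 1 other probe set with the same call. The members without one were CBX2, CHD5, HDAC9, KMT2B, KMT2D, PHF2, SETD3 and SETDB1. With the mean over all probe sets of a gene in place of the brightest, 19 members were called lower and 6 higher. The share of all named genes was not counted under this setting, so these counts cannot be set against a background.

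By the RefSeq gene table for T2T-MMU8v2.0, which matched all 83 members, 5 lay on the X chromosome and 0 on the Y chromosome. Of these 5, PHF8 and KDM5C were among the 28 called lower in the male fibroblasts, against 33.7% of all members and 15% of all named genes. PHF6 (−0.79, adjusted p = 0.00017) and HDAC6 (−0.28, adjusted p = 0.0081) were lower by under 2-fold and not called. HDAC8 (0.06, adjusted p = 0.71) did not pass the test.

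Genes that work beside the module but are no members were counted too. Each rests on its brightest probe set alone, and their other probe sets were not examined. Of 86 measured, 32 were called lower and 5 higher in fibroblasts, with a median of −0.63. Of all named genes, 15% were called lower and 13.2% higher, with a median of −0.15, which is also the background for the lists that follow. Among NuRD, SIN3 and CoREST partners, 7 of 15 were lower and 0 higher (median −0.82). MBD2, the methylated-DNA-binding subunit of NuRD, was 39-fold lower (−5.28, SE 0.1, adjusted p = 5.2e-13), and MTA3, another NuRD subunit, was 5.66-fold lower. Of the SWI/SNF, INO80 and ISWI partners, 9 of 25 were lower and 1 higher (median −0.68), with BCL11A at −2.96 and HELLS, a remodeller needed for DNA methylation, at −2.87.

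Acetyltransferase genes had 3 of 10 lower and 0 higher (median −0.48), led by KAT7 at −2.14 and KAT2A at −1.57. Other methyltransferase genes had 7 of 17 lower and 2 higher (median −0.67), including SMYD2 at 3.36 and the H3K36 methyltransferase gene NSD1 at −1.98. Polycomb repressive complex 1 and its partners had 4 of 13 lower and 2 higher (median −0.24), including PCGF2 at −1.85 and SCML1 at 2.18. COMPASS partners, which bind the KMT2 and SETD1 enzymes, had 2 of 6 lower and 0 higher (median −0.79), CXXC1 at −1.08 and DPY30 at −1.06.

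Between ES lines few members were called at the 2-fold minimum. Setting rPESC-2 against ORMES-22 asked what changes in a heterozygous line that lacks a paternal genome. SETD6 was the single member called higher (1.2% of members, 1.02% of all genes), and 0 members were called lower (0.685% of all genes). Without a minimum fold, 6 members (7.23%) were higher, SETD6, SIRT5, PHF24, HDAC9, SUZ12 and PHF20, against 3.8% of all genes, and 0 were lower against 2.94%. At an unadjusted limma p under 0.05, 29 members (34.9%) were higher and 3 (3.61%) lower, against 13.2% and 12.9% of all genes. The median difference of the members was 0.17 and that of all genes −0.03.

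ORMES-9 was compared with the same 3 ORMES-22 arrays, so both comparisons share their control arrays. SETD6 was called higher and SMARCA2 lower (1.2% of members each), against 1.38% and 0.916% of all genes. Without a minimum fold, 4 members (4.82%) were higher, SETD6, PHF24, PHF14 and SIRT5, and 3 (3.61%) lower, SMARCA2, CHD5 and PHF19, against 5.48% and 3.12% of all genes. These shares are near the background. The median difference of the members was 0.1 and that of all genes −0.01.

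**Figure D4:**
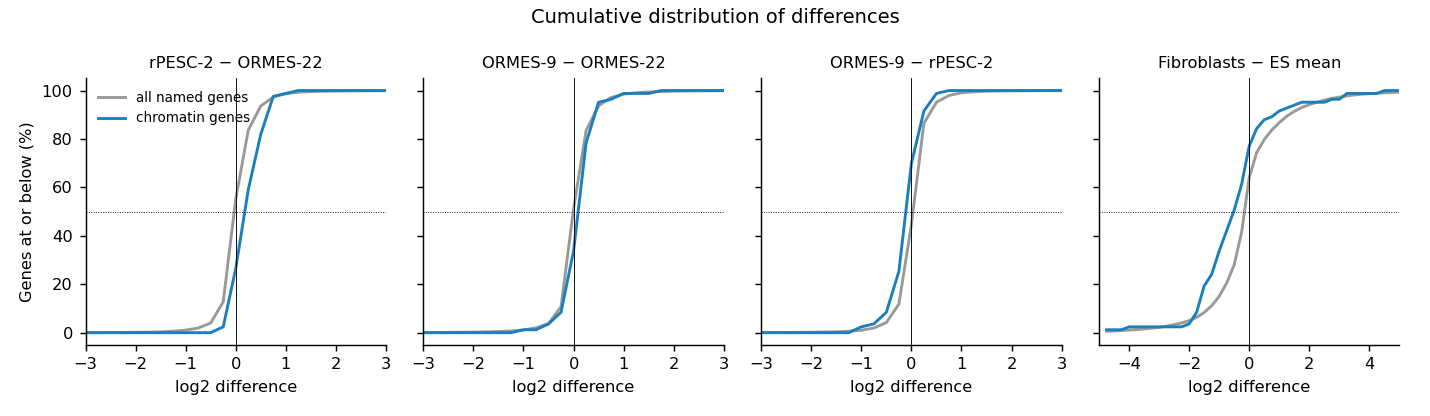
Cumulative share of genes (percent, vertical axis) at or below each log2 difference (horizontal axis) in the 4 comparisons, for the 83 chromatin genes (blue) and all 12993 named genes (grey); the dotted line marks the median. The fibroblast curve of the chromatin genes lies to the left of that of all genes (medians −0.55 and −0.15), and the curves lie closer together between ES lines (medians 0.17 and −0.03 for rPESC-2 minus ORMES-22).

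SETD6 stood at 7.04, 6.46 and 6.43 in ORMES-22, at 7.7, 7.8 and 8.1 in rPESC-2 and at 8.33, 8.34 and 7.82 in ORMES-9. Both parthenogenetic lines were above ORMES-22 on all arrays, and they overlapped each other. The difference was 1.23 for rPESC-2 (SE 0.18, adjusted p = 0.0024, 2.34-fold) and 1.52 for ORMES-9 (SE 0.18, adjusted p = 0.00034, 2.87-fold), and it was called with each array left out. Between the parthenogenetic lines the difference was 0.3 and did not pass the test (adjusted p = 0.5). SETD6 has 1 probe set on the array, so no second measurement was at hand.

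SIRT5, a mitochondrial enzyme that removes succinyl groups from lysines, stood at 7.41, 6.96 and 6.9 in ORMES-22. It was higher on every array of rPESC-2 (7.89, 7.9 and 8.03) and of ORMES-9 (7.64, 7.61 and 7.64). The differences were 0.85 (SE 0.13, adjusted p = 0.0024) and 0.54 (SE 0.13, adjusted p = 0.027), both under 2-fold, and the other, dimmer SIRT5 probe set gave 0.01 and −0.03. PHF24 stood at 6.14, 6.2 and 6.49 in ORMES-22, at 7.04, 7.19 and 6.76 in rPESC-2 and at 7.06, 7.37 and 7.17 in ORMES-9. It was thus higher in both parthenogenetic lines without overlap (0.72, adjusted p = 0.011, and 0.92, adjusted p = 0.0015), under 2-fold, and its other probe set gave −0.08 and −0.15.

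SUZ12, the core Polycomb subunit, stood at 9.76, 9.42 and 9.71 in ORMES-22 and at 10.04, 10.13 and 10.06 in rPESC-2, with 10.09, 9.91 and 9.91 in ORMES-9. Its difference passed the test at any size in rPESC-2 (0.44, adjusted p = 0.023) but not in ORMES-9 (0.34, adjusted p = 0.067). Without ORMES-22 replicate A it passed in both, at 0.51 (adjusted p = 0.0062) and 0.4 (adjusted p = 0.026). JARID2 gave −0.1 and −0.2, EED 0.08 and 0.07, and EZH1 0.15 and −0.23 in rPESC-2 and ORMES-9, and none of these differences passed the test. PHF19, an accessory subunit of the same complex, gave −0.31 in rPESC-2 (adjusted p = 0.077) and −0.36 in ORMES-9 (adjusted p = 0.04). Without ORMES-22 replicate A the ORMES-9 difference of PHF19 was −0.35 and did not pass (adjusted p = 0.057). With all arrays, the other, dimmer PHF19 probe set passed in both lines, under 2-fold. It gave −0.46 in rPESC-2 (adjusted p = 0.015) and −0.64 in ORMES-9 (adjusted p = 0.0012).

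The comparison of both parthenogenetic lines set a homozygous against a heterozygous genome of maternal origin. In ORMES-9 against rPESC-2, 2 members (2.41%) were called lower, SMARCA2 and SMARCC2, against 0.877% of all genes, and 0 were called higher, against 0.777%. Without a minimum fold, 7 members (8.43%) were lower, HDAC1, HDAC9, KDM5A, PHF20, PHF6, SMARCA2 and SMARCC2, against 3.15% of all genes. PHF14 was the single member higher at any size (1.2%), against 4.57% of all genes. At an unadjusted limma p under 0.05, 7 members (8.43%) were higher and 16 (19.3%) lower, against 12.8% and 9.02% of all genes. The median difference was −0.08 in the members and 0.02 in all genes.

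SMARCA2 stood at 5.83, 5.85 and 5.93 in ORMES-9, at 6.82, 6.74 and 7.08 in rPESC-2 and at 7.51, 6.35 and 7.19 in ORMES-22. ORMES-9 was the lowest line on every array, while rPESC-2 and ORMES-22 overlapped. The difference was −1.15 against ORMES-22 (SE 0.22, adjusted p = 0.0082) and −1.01 against rPESC-2 (SE 0.22, adjusted p = 0.019). Both lie close to the 2-fold minimum: without ORMES-22 replicate A the first was −0.9, and the second was not called when 1 of rPESC-2 A or C or ORMES-9 A, B or C was left out (−1.08 to −0.91 over all arrays left out). Of the other 4 SMARCA2 probe sets, 1 gave −1.23 and −1.07 and was called in both comparisons, and 3 gave −0.23 to 0.11 and −0.6 to −0.12 and were not called.

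SMARCC2, the BAF170 scaffold subunit of SWI/SNF, stood at 7.18, 6.69 and 6.43 in ORMES-9 and at 7.73, 7.92 and 7.73 in rPESC-2. ORMES-22 lay across both, at 7.85, 7.46 and 7.04. The difference between the parthenogenetic lines was −1.03 (SE 0.2, adjusted p = 0.012) and was not called without rPESC-2 B, ORMES-9 B or ORMES-9 C (−1.23 to −0.86 over all arrays left out). Its other 2 probe sets gave 0.05 and −0.07.

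KDM5A, an H3K4 demethylase, stood at 7.83, 7.2 and 7.48 in ORMES-9 and at 8.41, 8.57 and 8.42 in rPESC-2, without overlap. The difference of −0.96 (SE 0.16, adjusted p = 0.0049) was just under 2-fold and was called without ORMES-9 A (−1.13), while its other 2 probe sets both gave −0.16. PHF14, a PHD finger protein that binds histone H3, stood at 8.41, 8.65 and 7.91 in ORMES-9, above rPESC-2 (7.5, 7.71 and 7.87) and ORMES-22 (7.37, 7.58 and 7.59). Its differences were 0.63 (adjusted p = 0.044) and 0.81 (adjusted p = 0.011), and the second was called without ORMES-9 C (1.02).

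**Figure D5:**
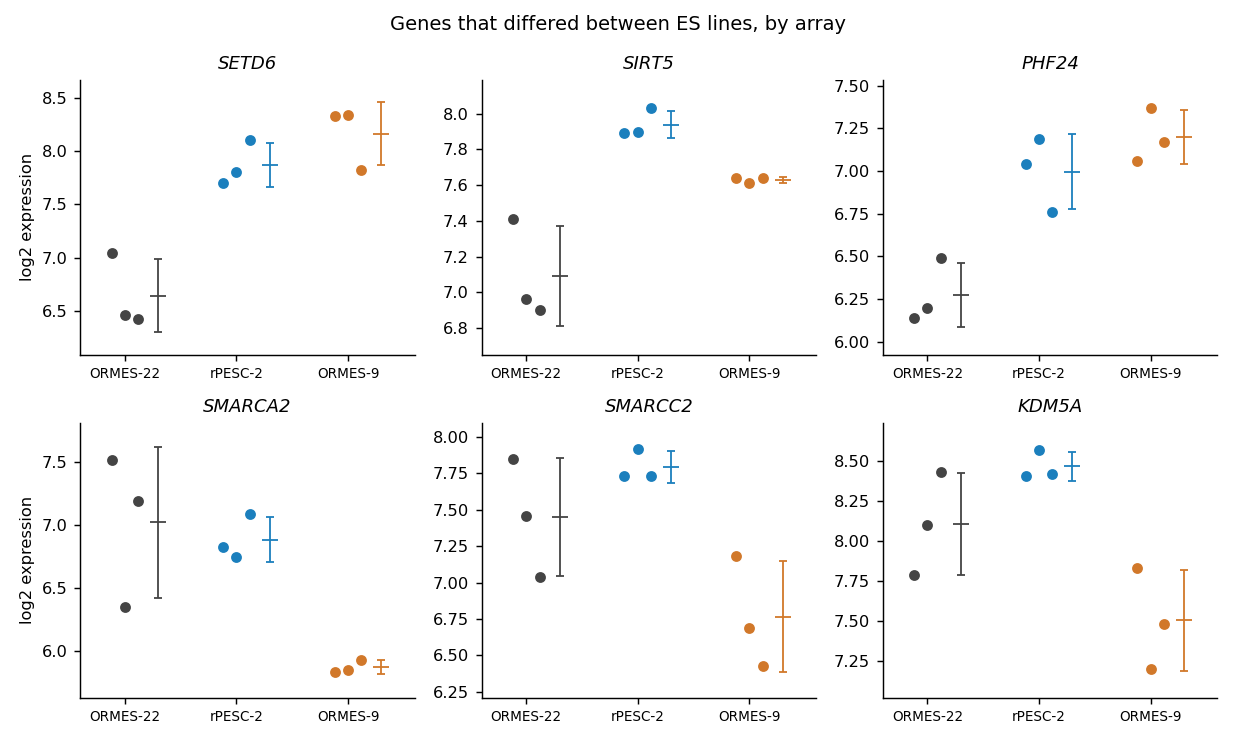
Log2 expression on each array of the 3 ES lines for 6 genes that differed between lines; points are arrays A, B and C, the tick beside them is the mean and the bar the SD (n = 3), and the vertical axes differ between panels and do not start at 0. SETD6, SIRT5 and PHF24 are lowest on the ORMES-22 arrays (6.43 to 7.04 for SETD6), and SMARCA2 is lowest on the ORMES-9 arrays (5.83 to 5.93).

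ORMES-22 replicate A bears on these counts. Its members lay a median of 0.19 above the mean of replicates B and C (all genes −0.01), with KDM3A, HDAC11, CBX7 and SETDB2 at least 2-fold higher and 0 members at least 2-fold lower, whereas of all 12993 genes 303 passed 2-fold upward and 172 downward. The median SD of the members was 0.218 in ORMES-22 and 0.096 to 0.117 in the other groups, and that of all genes was 0.156 in ORMES-22 and 0.097 to 0.113 in the others. Without it, 4 members were called higher in rPESC-2, SETD6 (1.42), KDM3A (1.4), HDAC11 (1.04) and SIRT5 (1.01), and 0 lower, against 2.59% and 1.6% of all genes. At any size, 26 of 83 members were then higher and 0 lower, against 12.6% and 8.4% of all genes. In ORMES-9, 2 members were then called higher, SETD6 (1.72) and KDM3A (1.12), and 0 lower, against 2.22% and 1.48% of all genes. At any size, 19 of 83 members were then higher and 4 lower in ORMES-9, against 10.5% and 5.53% of all genes. The KDM3A differences with all arrays were 0.72 in rPESC-2 and 0.44 in ORMES-9, neither called. With all arrays, the other KDM3A probe sets gave 0.66 and −0.35 in rPESC-2 and 0.45 and −0.23 in ORMES-9. The HDAC11 difference in rPESC-2 with all arrays was 0.59, not called, and its other probe set gave −0.21.

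Markers of other cell types also differed between the ES lines. Of 7 measured endoderm markers, 4 were called higher in rPESC-2 and 3 in ORMES-9, with mean levels of 5.67 to 6.19 in ORMES-22, 7.34 to 7.55 in rPESC-2 and 6.81 to 7.31 in ORMES-9. Of 16 fibroblast and matrix markers, 3 were called lower in rPESC-2 and 2 in ORMES-9, with mean levels of 7.97 to 8.28 in ORMES-22, 7.04 to 7.63 in rPESC-2 and 7.23 to 7.5 in ORMES-9, and LUM, FAP and TWIST2 were under the background level in all 3 lines. Of 14 pluripotency markers, GDF3 was called higher in both lines and PRDM14 and NODAL in ORMES-9, and of 10 mesoderm markers GSC was called higher and ACTC1 lower in both lines. In ORMES-9 against rPESC-2, PRDM14 was called higher (1.56), and CER1 of endoderm (−1.19), TEK of other skin cells (−2.21) and TYMS of proliferation (−1.41) lower, and against ORMES-22 TEK and TYMS were also called lower in ORMES-9. The part of these markers in the differences of SETD6, SIRT5, PHF24, SMARCA2 and SMARCC2 was not tested. Among the 86 other chromatin genes, 0 were called in rPESC-2, against 1.02% of all genes higher and 0.685% lower. At an unadjusted limma p under 0.05, 14 (16.3%) were higher there and 9 (10.5%) lower, against 13.2% and 12.9% of all genes. In ORMES-9 against ORMES-22, 1 was called higher and 1 lower, against 1.38% and 0.916% of all genes. RBBP5, a COMPASS core subunit, was higher (1.23, SE 0.17, adjusted p = 0.0008) and ATRX, a remodeller of heterochromatin, lower (−1.38, SE 0.13, adjusted p = 7e-05). In ORMES-9 against rPESC-2, 0 were called, against 0.777% of all genes higher and 0.877% lower. At that unadjusted p, 8 (9.3%) were higher and 8 (9.3%) lower, against 12.8% and 9.02% of all genes.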

How the data were processed

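The deposited values are log2 expression summaries of probe sets on 12 arrays, which the authors made with RMA, as the submitters' processing notes say. The version of RMA and the probe set definition are not given in the sources used here. The log2 scale was read from the values themselves, with array medians of 5.01 to 5.1. Because RMA evens out the arrays' distributions, it can shrink a change common to most genes, and it understates changes near the background. Of 52865 features, 99 controls were left out. Background was judged from 42 bacterial poly-A probe sets (median 3.75, 90th percentile 4.26). The platform annotation gave 24956 probe sets 1 symbol, 361 several and 27449 none. Provisional LOC symbols were left out. The brightest probe set stood for each gene.

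A linear model with 4 group means and no covariate was fitted to all 12 arrays by limma 3.58.1 under R 4.3.3, using lmFit and eBayes (residual degrees of freedom 8, prior 3.69). Two-sided p-values were adjusted by Benjamini-Hochberg over all probe sets. The fit was tested on simulated data. The members, role lists, marker lists and pairs were chosen with earlier results of these data known. Values are given for up to 12 called members in each direction, or the 3 with the largest difference where under 3 were called, the member with the largest fibroblast difference of each role, the named Polycomb genes and the pairs. The largest differences also included SIRT7 and SMARCB1 in rPESC-2 against ORMES-22 (both −0.25) and KDM5A in ORMES-9 against ORMES-22 (−0.6). In ORMES-9 against rPESC-2 they included KDM8 (0.47) and KDM2A (0.37). None of these differences had an adjusted p under 0.05. Members added after their values were seen are named where they belong to a count or differ without ORMES-22 replicate A. The replicate letters did not pair the arrays: same-letter deviations correlated at −0.31 to 0.26 over 18 pairs of arrays. Alternatives were other samples in the fit, the replicate letter as a block, a filter on dim probe sets, other scalings, moderation and array weights, no minimum fold, other choices of a gene's probe set, each ES line as reference (rPESC-2 and ORMES-9 chosen after seeing the data) and each array left out.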

Additional observations from a re-analysis of the deposited data

Results flagged for a closer look

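For SMARCA2 and SMARCC2 the effect against ORMES-22 differed between the parthenogenetic lines. For SMARCA2, the effect in ORMES-9 less that in rPESC-2 was −1.01, since ORMES-9 lay at −1.15 and rPESC-2 at −0.14 from ORMES-22. For SMARCC2 it was −1.03, with ORMES-9 at −0.69 and rPESC-2 at 0.34. Both differences were tested directly as ORMES-9 minus rPESC-2 in limma (adjusted p = 0.019 and 0.012), from which the shared ORMES-22 arrays drop out.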

How the results depend on the processing

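With no minimum difference, 6 members were higher in rPESC-2, 4 were higher and 3 lower in ORMES-9 than in ORMES-22, 1 was higher and 7 lower in ORMES-9 against rPESC-2, and 12 higher and 51 lower in fibroblasts. The count of 1 lower member in ORMES-9 against ORMES-22 became 0 with only the arrays of the groups compared or with the mean over a gene's probe sets. The count of 2 lower members in ORMES-9 against rPESC-2 became 1 with only the ES arrays or with array weights, and 0 with the mean over a gene's probe sets. With an array left out, counts ranged from 1 to 4 higher and 0 to 0 lower in rPESC-2, 1 to 2 higher and 0 to 1 lower in ORMES-9 relative to ORMES-22, 0 to 0 higher and 0 to 2 lower in ORMES-9 against rPESC-2, and 7 to 7 higher and 27 to 29 lower in fibroblasts. The replicate block changed no count (28 lower and 7 higher in fibroblasts). With array medians subtracted the fibroblast counts were 27 lower and 7 higher, and with quantile normalisation 29 and 7. None of these settings turned the sign of a called difference, but 1 other probe set of CHD6 was called in the opposite direction in fibroblasts (1.88). The cause of these changes was not tested, except that leaving arrays out or adding no minimum changes what is counted by construction. Signal near the background limits PHF11, HDAC9 and CHD2.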
